A study of Homo sapiens with 9 samples.

Results

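The genes described here encode the proteins of the cytosolic ribosome. They were the gene rows whose symbol was RPL or RPS followed by digits and at most a single A or X, together with RPLP0, RPLP1, RPLP2 and RPSA. The rule itself rested on symbols and used no measured value, but it was chosen with earlier results of these data known. It took 77 genes of the 60325 gene rows, 46 for the large (60S) subunit and 31 for the small (40S) subunit, on 21 chromosomes. All 77 passed the filter on low counts and stood among the 16796 genes tested. Pseudogenes and the RPS6K kinases are outside the rule. So is FAU, whose transcript encodes a ribosomal protein fused to a ubiquitin-like protein.

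The RNA came from LAPC4, a human prostate cancer cell line that responds to androgen, harvested at day 30 and sequenced from total RNA. Rescue cells (KD4OE, 3 libraries) carried UGT2B28 overexpressed on the knockdown background, under selection with 1 mg/mL G418. Knockdown-labelled cells (KD4, 3 libraries) carried the UGT2B28 knockdown, under 3 ug/mL puromycin. Control cells (NT, 3 libraries) were the comparison line, for which no selection drug is given. UGT2B28 is an enzyme that attaches glucuronic acid to steroids. The drug differed with the label, so its effect and that of UGT2B28 cannot be told apart. Nothing in the labels says that libraries of a group came from separate cultures, so the p-values rest on a spread between libraries that may be technical.

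Ribosomal proteins are made in equal numbers for assembly with ribosomal RNA, and their mRNAs are among the most abundant in dividing cells. Most begin with a C followed by a run of pyrimidines, the terminal oligopyrimidine (TOP) tract, through which LARP1 and mTOR signalling set how strongly the mRNA is translated and how stable it is. Some free ribosomal proteins have a second role, since RPL5, RPL11 and RPL23 can bind MDM2, the regulator of p53.

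The starts of 9 of these genes are shown as examples with and without such a tract. The first 6 lines are members that passed the test as lower in rescue than in knockdown-labelled libraries, and the last 3 are the members with the smallest fold change in that comparison among those above 20 CPM, the count scaled to a common library size. Each line runs from 25 bases before to 25 bases from the annotated start, 5′ to 3′, from RefSeq on GRCh38.p14. Capitals mark a run of at least 5 pyrimidines that opens with C within 5 bases of the start.
RPS6 (chr9:19380212-19380261, minus strand): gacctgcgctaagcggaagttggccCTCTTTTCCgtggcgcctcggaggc
RPS24 (chr10:78033838-78033887, plus strand): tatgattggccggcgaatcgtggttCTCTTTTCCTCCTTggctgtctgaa
RPL34 (chr4:108620551-108620600, plus strand): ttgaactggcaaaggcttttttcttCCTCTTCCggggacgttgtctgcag
RPS3A (chr4:151099603-151099652, plus strand): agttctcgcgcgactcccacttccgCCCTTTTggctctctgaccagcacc
RPS4X (chrX:72277224-72277273, minus strand): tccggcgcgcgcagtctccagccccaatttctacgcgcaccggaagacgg
RPS26 (chr12:56041893-56041942, plus strand): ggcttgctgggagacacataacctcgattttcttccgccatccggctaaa
RPL41 (chr12:56116608-56116657, plus strand): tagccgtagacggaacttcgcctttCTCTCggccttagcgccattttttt
RPS27 (chr1:153990737-153990786, plus strand): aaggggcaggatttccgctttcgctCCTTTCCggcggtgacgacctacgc
RPL22 (chr1:6199571-6199620, minus strand): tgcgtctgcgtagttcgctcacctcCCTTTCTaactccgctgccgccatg
In all, 14 members passed, 11 of them had an entry from which such a window was read, and 7 of the 11 had the run. RPS4X and RPS26 held none within 5 bases of the RefSeq start.

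Of the 77 genes, 62 had an entry in the RefSeq promoter table, and 53 of them (85.5%) had such a run at an annotated start. The share was 28.9% of the 10893 tested genes in that table and 25.2% of all 27305 genes in it, where a gene counted if any of its listed starts held the run. The median run of the 53 genes was 8 bases and the longest was 19. Over the 300 bases listed per start (250 before and 50 after), CCGGAAG, the core of an ETS site, lay on either strand in 35.5% of the 62 genes, 21.98% of tested genes and 12.2% of all genes. AAGATGG, a YY1-type core, lay in 12.9% of the 62 genes, 9.58% of tested and 7.11% of all genes. GGGCGG, the SP1-type box, lay in 58.1% of the 62 genes, against 74.99% of tested and 48.3% of all genes. TATAAA lay in 8.06% of the 62 genes, 8.73% of tested and 13.99% of all genes. The ETS and YY1 letters can overlap, since CCGGAAG ends in the AAG with which AAGATGG begins. A match is a description only, and no match says only that these letters are not in this window. In rescue against knockdown-labelled libraries, the median log2 fold change was -0.80 over the 53 genes with a run and -0.85 over the 9 without. Of the genes that passed as lower there, 7 of the 11 with an entry had the run, beside 53 of all 62. Whether the run goes with the fold change was not tested.

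Counts on genes ranged from 8132206 to 14185252 per library. UGT2B28 itself had 75.1, 92.9 and 53.6 CPM in rescue libraries, 8.48, 6.18 and 3.05 CPM in knockdown-labelled libraries and 5.12, 5.1 and 7.8 CPM in control libraries. Knockdown-labelled libraries did not differ from controls in it beyond the replicate spread (log2 fold change -0.04, SE 0.349, edgeR adjusted p = 0.957), so the label is used here only as a name. The 6 luminal markers KLK2, KLK3, HOXB13, KRT8, KRT18 and EPCAM were present in every library, with summed levels of 4097 to 5182 CPM in rescue, 2579.9 to 5469 CPM in knockdown-labelled and 3377 to 4345 CPM in control libraries. Of other cell types, PTPRC, the pan-leukocyte marker, had 0 counts in all 9 libraries, and the 4 leukocyte markers, 3 endothelial markers and 3 basal markers summed to at most 5.03 CPM each. The 5 fibroblast markers summed to 39.9, 56.0 and 121 CPM in rescue, 39.97, 44.7 and 39.5 CPM in knockdown-labelled and 22.2, 19.5 and 67.3 CPM in control libraries. Knockdown-labelled library 3 stood apart from libraries 1 and 2 of its group in the ribosomal protein genes, in the luminal sum (2579.9 CPM, against 5469 and 5389.7 CPM) and in the share of mitochondrially encoded mRNAs. Counts of called genes, the shares and the lists are therefore also given without it. Library 3 was left out because of these same values. Calls and p-values without it are thus a description and no separate support.

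Levels differed widely between the genes. The mean in control libraries ran from 3.74 CPM for RPL17 to 4610.1 CPM for RPS2, a protein at the mRNA entry of the small subunit, with a median of 910.5 CPM. Per kilobase of coding sequence in control libraries, RPL41, the shortest at 78 coding bases, was highest at 11392 CPM per kb. RPS21 followed at 6648, RPS18 at 5388, RPS2 at 5227 and RPLP1 at 5022 CPM per kb. At the low end stood RPL17 at 6.74, RPS10 at 8.75, RPL36A at 25.1 and RPL26 at 27.7 CPM per kb. These 4 genes are among the 5 members under 20 CPM in the control mean.

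These 4 genes share their sequence with other annotated genes. Of 100-base windows over the coding sequence and 50 bases on each side, 90.6% were shared with another gene for RPL17, 88.0% for RPS10, 59.9% for RPL36A and 59.5% for RPL26. For RPL17, RPS10 and RPL36A the gene sharing most windows was an annotated read-through transcript across the member and its neighbour (RPL17-C18orf32, RPS10-NUDT3 and RPL36A-HNRNPH2), and each of those rows held 0 counts in all 9 libraries. In each library 2.36% to 3.14% of counts stood in the row for reads ambiguous between genes and 7.67% to 11.6% in the row for alignments that were not unique, neither of which is credited to a gene. How far this set the level of these genes was not tested. High sharing alone did not go with a low level, since 18 of the 77 genes shared over 50% of their windows and RPL21, at 90.1%, averaged 380 CPM in control libraries. No source used here says whether strand was used in counting. For the 29 members that overlap a gene on the opposite strand, reads of the 2 genes cannot be told apart.

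The ribosomal protein mRNAs together took 6.91%, 7.05% and 7.88% of gene counts in rescue libraries, 11.9%, 11.4% and 6.61% in knockdown-labelled libraries and 8.30%, 8.31% and 8.04% in control libraries. The 2 highest and the lowest share of all 9 libraries were thus in the knockdown-labelled group, and every rescue library lay below every control library. The mean was 7.28% ± 0.524 in rescue, 9.99% ± 2.94 in knockdown-labelled and 8.22% ± 0.152 in control libraries (SD, n = 3 each). The two-sided exact permutation p was 0.4 for rescue against knockdown-labelled, 0.4 for knockdown-labelled against control and 0.1 for rescue against control, and 0.1 is the smallest that 3 against 3 libraries allow. Without knockdown-labelled library 3 the mean of that group was 11.7%, with an exact p of 0.2 against rescue and 0.2 against control, the smallest that 3 against 2 libraries allow. In bulk RNA, fewer cells that make much of an mRNA and less of it per cell cannot be told apart.

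**Figure D1:**
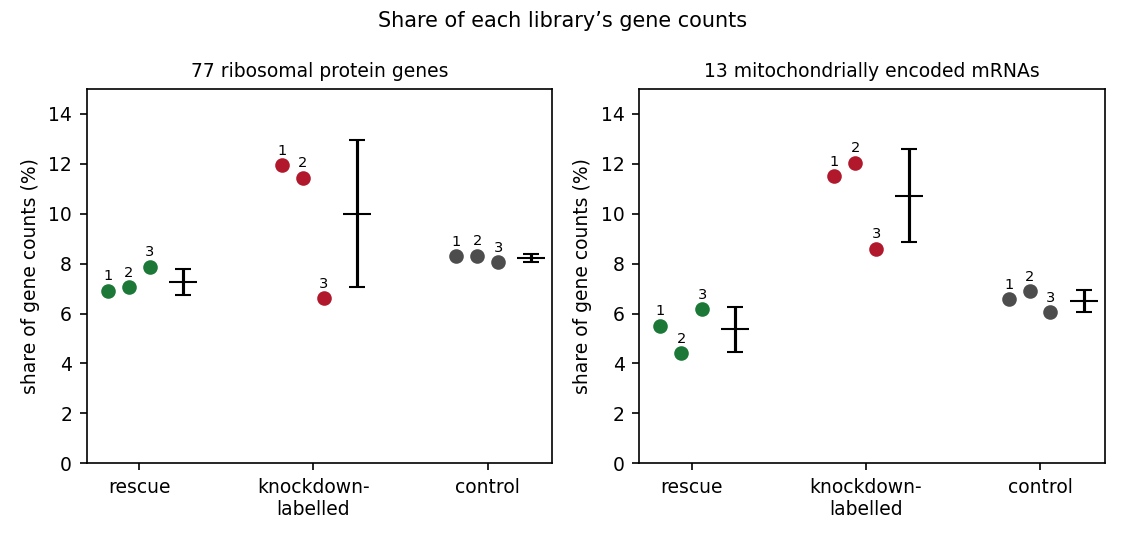
Share of each library's gene counts (%, y axis from 0) taken by the 77 ribosomal protein genes (left) and by the 13 mitochondrially encoded mRNAs (right). Points are the 3 libraries of each group, numbered by replicate, and bars show mean ± SD; knockdown-labelled libraries 1 and 2 lie at 11.9% and 11.4% on the left and library 3 at 6.61%.

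The balance between the subunits moved little beside this. Small-subunit genes held 39.2%, 39.5% and 39.1% of all ribosomal protein counts in rescue libraries, 41.8%, 41.5% and 39.5% in knockdown-labelled libraries and 40.4%, 40.2% and 39.4% in control libraries. The exact permutation p was 0.2 for rescue against knockdown-labelled, 0.3 for knockdown-labelled against control and 0.2 for rescue against control. The share of the 13 mitochondrially encoded mRNAs was 5.503%, 4.41% and 6.18% in rescue, 11.51%, 12.05% and 8.59% in knockdown-labelled and 6.57%, 6.90% and 6.04% in control libraries. In that measure library 3 of the knockdown-labelled group lay above all rescue and control libraries, where for the ribosomal protein share it lay below them. With mitochondrially encoded genes out of the denominator, the ribosomal protein share was 7.43%, 7.48% and 8.56% in rescue, 14.1%, 13.6% and 7.36% in knockdown-labelled and 9.04%, 9.09% and 8.71% in control libraries. The order of the libraries at the top and bottom was the same.

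Set against each gene's control mean, the median of the 77 genes was -0.29, -0.26 and -0.02 on the log2 scale in rescue libraries, 0.97, 0.90 and -0.30 in knockdown-labelled libraries and 0.00, 0.01 and -0.02 in control libraries. Over all tested genes these medians lay between -0.00 and 0.02. In 71 of the 77 genes, knockdown-labelled libraries 1 and 2 were above every other library. In 45 genes, knockdown-labelled library 3 was below every rescue and every control library. The genes were spread more widely in this group, as all tested genes were. The interquartile range over the 77 genes was 0.101, 0.127 and 0.123 in rescue libraries, 0.434, 0.426 and 0.448 in knockdown-labelled libraries and 0.051, 0.053 and 0.078 in control libraries. Over all tested genes it was 0.399, 0.459 and 0.448 in rescue, 0.731, 0.708 and 0.622 in knockdown-labelled and 0.187, 0.182 and 0.229 in control libraries.

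**Figure D2:**
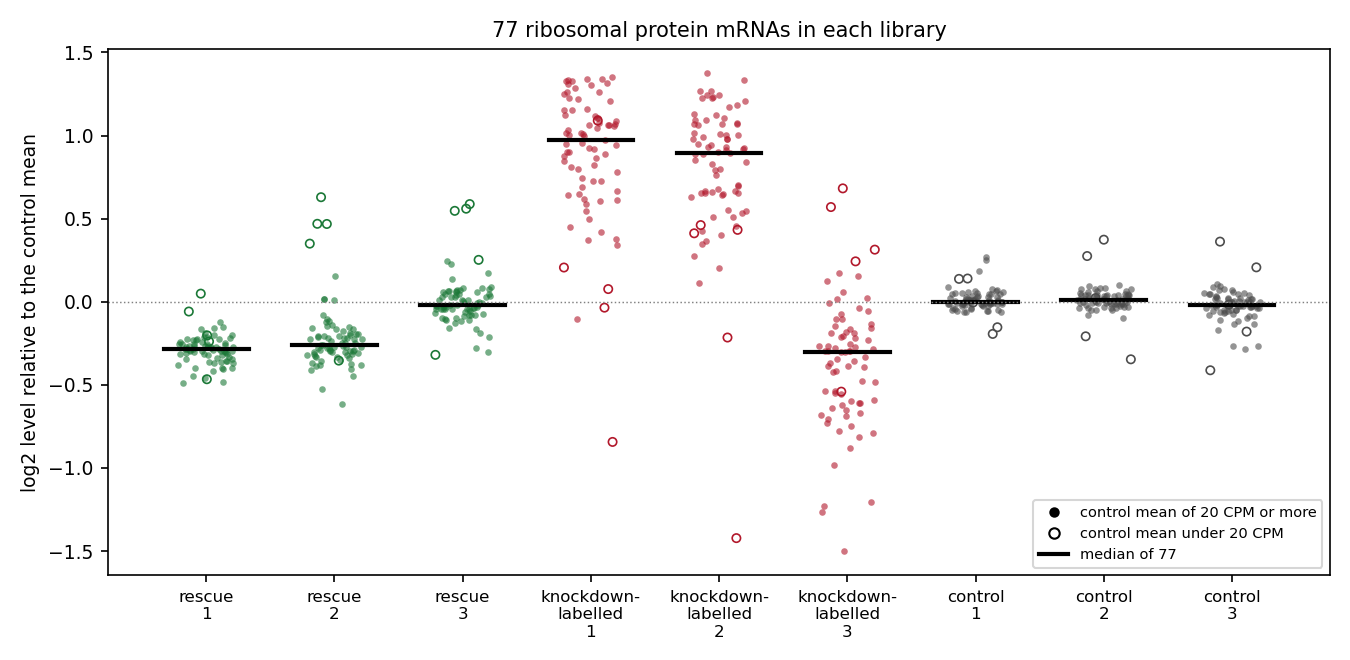
Log2 level of each of the 77 ribosomal protein mRNAs relative to its mean in the control libraries (y axis), by library. Filled points have a control mean of 20 CPM or more, open points are the 5 genes below it, and the bar is the median; the median is 0.97 and 0.90 in knockdown-labelled libraries 1 and 2 and -0.30 in library 3.

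In rescue against knockdown-labelled libraries, 14 of the 77 genes were lower and 0 were higher (edgeR quasi-likelihood test, Benjamini-Hochberg adjusted p under 0.05). Of all tested genes 5.39% were lower and 4.44% higher, and 14 of 77 compares with 5.39%. The log2 fold change was negative in 74 of the 77 and positive in 3, against 50.3% and 49.7% of all tested genes, and its median was -0.78, against -0.00 over all tested genes. At an unadjusted p under 0.05, 53 were lower and 0 higher, against 28.3% of all tested genes in either direction. DESeq2 called 40 lower and 0 higher, against 8.64% and 7.45% of all genes. The genes that passed were RPS20, RPS4X, RPS26, RPS15, RPS3A, RPS6, RPS7 and RPS24 of the small subunit and RPL5, RPL34, RPL4, RPL6, RPL23 and RPL10A of the large subunit. Their adjusted p lay between 0.0207 and 0.0491, so all stood near the threshold. The fit pooled the spread of all 3 groups, control libraries included, while the knockdown-labelled libraries spread most. Its SEs can thus be too small where that group enters and too large for rescue against control. With only the 2 groups in the fit 0 of the 77 passed, where 0.0183% of all tested genes were lower.

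RPS20, a protein of the small subunit's head that is ubiquitinated when ribosomes collide, had 518, 509.5 and 618 CPM in rescue, 1635, 1552 and 704 CPM in knockdown-labelled and 649, 672 and 614 CPM in control libraries. All rescue libraries were below all knockdown-labelled libraries, but knockdown-labelled library 3 lay only a little above the control libraries. The log2 fold change in rescue against knockdown-labelled was -1.24 (SE 0.266, 95% confidence interval -1.83 to -0.66, adjusted p = 0.0207). RPS4X, the small-subunit protein encoded on the X chromosome, had 535, 544 and 613 CPM in rescue, 1184, 1164 and 706 CPM in knockdown-labelled and 624, 638 and 615 CPM in control libraries. Here every knockdown-labelled library lay above every library of the other groups, and the log2 fold change was -0.85 (SE 0.19, adjusted p = 0.0235). RPS3A, of the small subunit's platform, had 915, 993 and 1055 CPM in rescue, 2449, 2426 and 1063 CPM in knockdown-labelled and 1036, 1014 and 1103 CPM in control libraries. Library 3 of the knockdown-labelled group was only just above the highest rescue library, and the log2 fold change was -1.003 (SE 0.267, adjusted p = 0.041).

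RPS26, which contacts mRNA at the exit channel, had 202, 177 and 228 CPM in rescue, 565, 531 and 239 CPM in knockdown-labelled and 241, 253 and 214 CPM in control libraries, a log2 fold change of -1.14 in rescue against knockdown-labelled (SE 0.267, adjusted p = 0.027). RPS15, which lies near the decoding site, had 785, 681 and 876 CPM in rescue, 2112, 1933 and 943 CPM in knockdown-labelled and 968, 1037 and 942 CPM in control libraries (log2 fold change -1.09, SE 0.258, adjusted p = 0.0274). In both genes the rescue and knockdown-labelled libraries did not overlap. RPS6, the ribosomal substrate of S6 kinase, had 1355, 1363 and 1684 CPM in rescue, 4218, 4116 and 1532 CPM in knockdown-labelled and 1726, 1711 and 1693 CPM in control libraries (log2 fold change -1.16, SE 0.315, adjusted p = 0.0428). RPS7 had 525, 532 and 601 CPM in rescue, 1632, 1622 and 535 CPM in knockdown-labelled and 615, 629 and 688 CPM in control libraries (log2 fold change -1.19, SE 0.331, adjusted p = 0.0464). RPS24 had 751, 794 and 908 CPM in rescue, 1895, 1928 and 849 CPM in knockdown-labelled and 950.0, 993 and 996 CPM in control libraries (log2 fold change -0.93, SE 0.263, adjusted p = 0.0491). In RPS6, RPS7 and RPS24, knockdown-labelled library 3 lay within the range of the rescue libraries.

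Among large-subunit genes, RPL5, which binds 5S ribosomal RNA, had 665, 689 and 801 CPM in rescue, 1633, 1676 and 865 CPM in knockdown-labelled and 827, 811 and 857 CPM in control libraries. The log2 fold change was -0.95 (SE 0.226, adjusted p = 0.0277). RPL34 had 489.8, 530.3 and 618 CPM in rescue, 1513, 1492 and 627 CPM in knockdown-labelled and 631, 630.2 and 629 CPM in control libraries (log2 fold change -1.15, SE 0.277, adjusted p = 0.0294). For both genes the rescue libraries lay below all others. RPL4, whose extension lines the peptide exit tunnel, had 1390.3, 1348 and 1568 CPM in rescue, 2522, 2564 and 1799 CPM in knockdown-labelled and 1571, 1581 and 1705 CPM in control libraries (log2 fold change -0.68, SE 0.172, adjusted p = 0.0353). RPL6 had 1094, 1102 and 1242 CPM in rescue, 2192, 2173 and 1325 CPM in knockdown-labelled and 1325, 1374 and 1382 CPM in control libraries (log2 fold change -0.73, SE 0.195, adjusted p = 0.0419). RPL10A, of the L1 stalk beside the exit site for transfer RNA, had 747, 804 and 812 CPM in rescue, 1278, 1195 and 939 CPM in knockdown-labelled and 979, 1019 and 963 CPM in control libraries (log2 fold change -0.53, SE 0.148, adjusted p = 0.0477). In RPL4, RPL6 and RPL10A the knockdown-labelled libraries differed less among themselves than in RPS20 or RPS6. RPL23, a protein of the subunit interface, had 831, 871 and 1016 CPM in rescue, 1905, 1965 and 989 CPM in knockdown-labelled and 1061, 1111 and 1117 CPM in control libraries, with library 3 inside the rescue range (log2 fold change -0.84, SE 0.233, adjusted p = 0.0467).

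**Figure D3:**
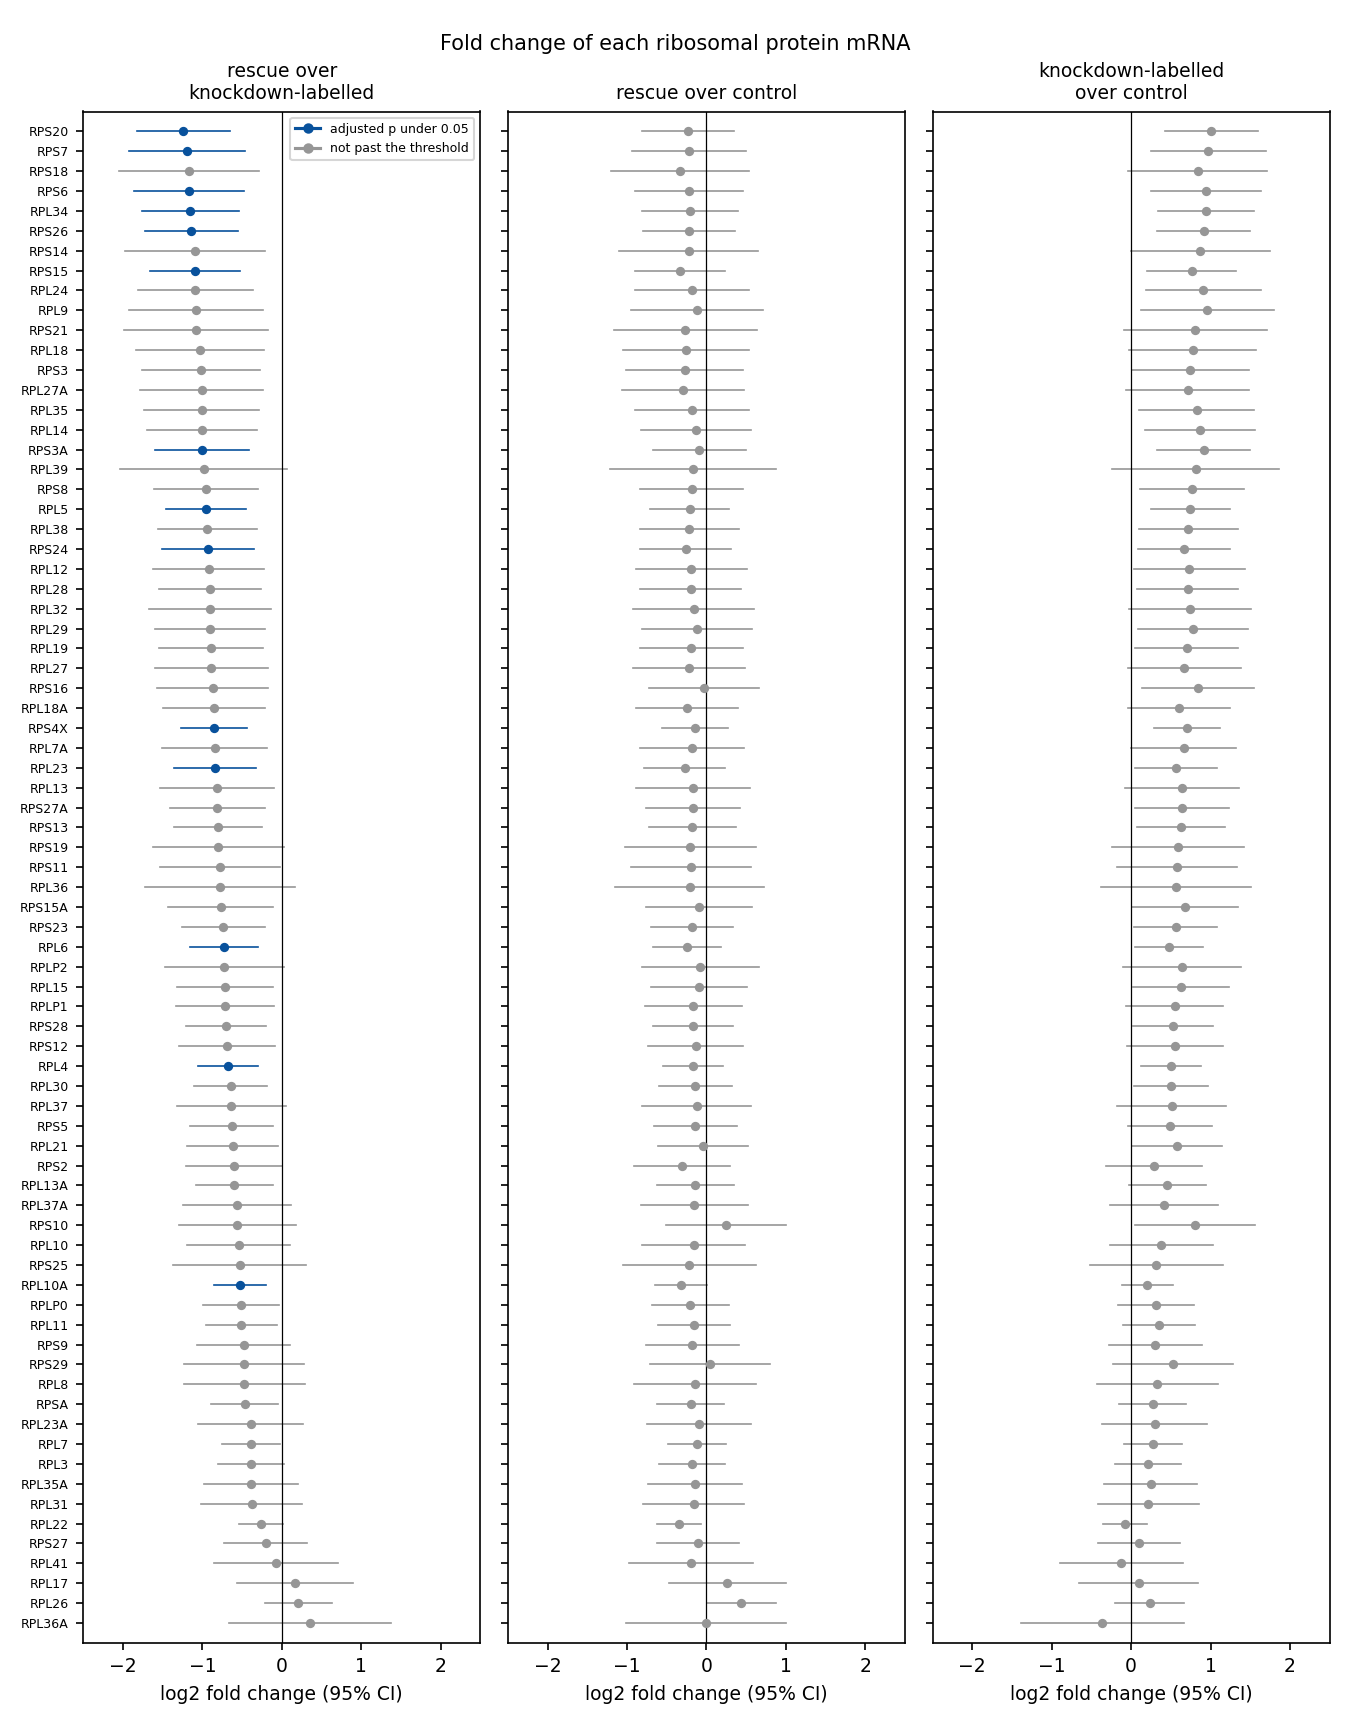
Log2 fold change with its 95% confidence interval (x axis) for 76 of the 77 genes (y axis, ordered by rescue over knockdown-labelled) in the 3 comparisons. Blue marks the 14 genes with an adjusted p under 0.05 in rescue over knockdown-labelled; no gene passed in the other comparisons.

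All rescue libraries were below all knockdown-labelled libraries in 10 of the 77 genes, each of them among the 14, against 14.0% of all tested genes, and above them in 0, against 14.6%. Relative to the control mean, the 14 genes had a median of 1.04 in knockdown-labelled library 1, 0.99 in library 2 and -0.02 in library 3. The other 63 had 0.96, 0.85 and -0.40, with ranges that overlap. The 14 were picked by a test on these same libraries, which favours genes whose library 3 stays near libraries 1 and 2. The difference in library 3 is therefore not a separate result. RPS18, a protein of the small subunit's head, did not pass. Its log2 fold change of -1.17 exceeded that of 12 genes that passed, but its 1765, 1902 and 2218 CPM in rescue stood against 6154, 5616 and 1493 CPM in knockdown-labelled libraries (SE 0.399, adjusted p = 0.0864).

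Without knockdown-labelled library 3, 72 genes were lower, all 14 among them, and 1, RPL36A, was higher, against 20.4% and 18.6% of all tested genes. The log2 fold changes of the 14 then lay between -1.56 and -0.65, and RPS18, RPL41, RPS27 and RPL22 were lower too, at -1.59, -0.47, -0.47 and -0.36. Library 3 was left out for its values in these same genes, so these calls are no separate support. Without knockdown-labelled library 1 or 2, 0 passed, where 1.35% and 0.558% of all tested genes were lower. Without rescue library 1, 2 or 3, 0 passed as well, where 0.249%, 0.753% and 0.649% were lower. Without control library 1, 2 or 3, 2, 2 and 5 passed as lower, against 2.6%, 2.44% and 3.24% of all tested genes. With library 3 as the only knockdown-labelled library, 0 genes were lower and 21 higher, against 6.84% and 12.7% of all tested genes, and the median was 0.21. In that fit the lone library is assumed to vary like the other groups. With no filter on low counts 60 were lower and 0 higher, against 4.07% and 3.45% of all genes, and with only the 2 groups in the fit 0 passed, against 0.0183% lower and 0.0244% higher.

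**Figure D4:**
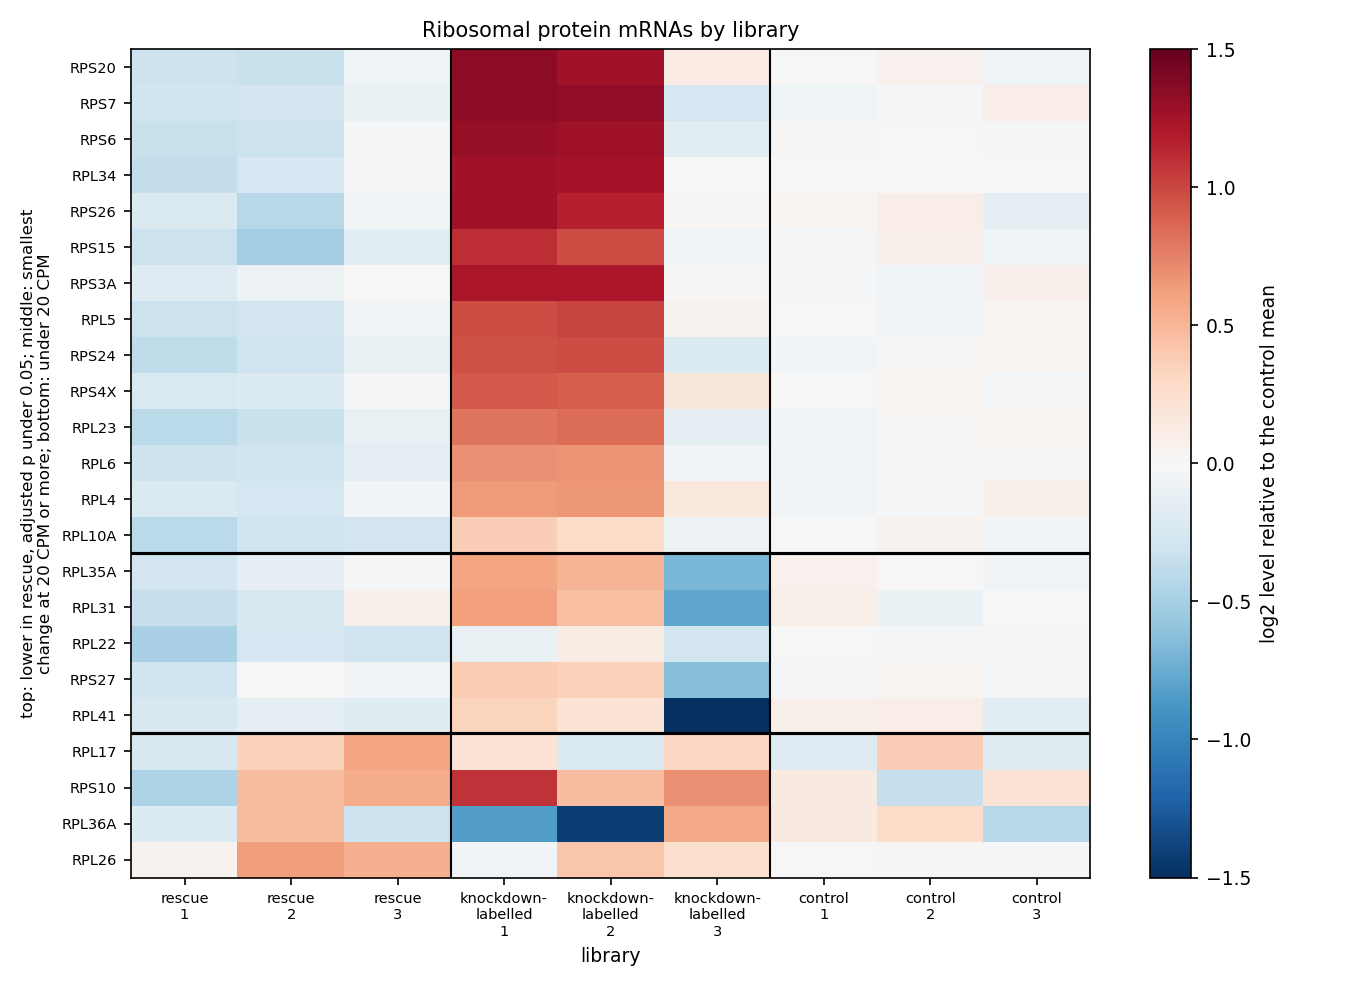
Log2 level relative to the control mean (colour, from -1.5 to 1.5) by library for the 14 genes lower in rescue than in knockdown-labelled libraries (top), the 5 with the smallest fold change among the rest at 20 CPM or more (middle) and 4 genes under 20 CPM (bottom). Knockdown-labelled libraries 1 and 2 are high in the top rows and library 3 is near 0 there. The top rows were picked by a test on these same libraries.

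Some genes stayed apart from the rest. RPL41, which encodes the smallest ribosomal protein, had 747, 798 and 778 CPM in rescue, 1119.6, 1018 and 312 CPM in knockdown-labelled and 932, 947 and 786 CPM in control libraries. Its level in knockdown-labelled library 3 was -1.503 on the log2 scale against the control mean, the lowest of the 77 genes in that library, and its log2 fold change in rescue against knockdown-labelled was -0.08 (95% confidence interval -0.86 to 0.70, adjusted p = 0.913). RPS27, a zinc finger protein of the small subunit, had 718, 893 and 864 CPM in rescue, 1152, 1131 and 568 CPM in knockdown-labelled and 879, 914 and 869 CPM in control libraries (log2 fold change -0.20, 95% confidence interval -0.72 to 0.32). RPL22, which bulk translation in mice can do without, had 75.1, 88.6 and 85.2 CPM in rescue, 98.0, 114 and 86.7 CPM in knockdown-labelled and 106, 104 and 107 CPM in control libraries (log2 fold change -0.26, 95% confidence interval -0.54 to 0.01, adjusted p = 0.196). It was the only member at 20 CPM or more that lay below the control mean in knockdown-labelled library 1.

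Of the genes under 20 CPM, RPL36A, RPL26 and RPL17 did not share the direction of most members in rescue against knockdown-labelled libraries. RPS10 did, at -0.56, and at 0.81 in knockdown-labelled against control. At such levels the intervals are wide. RPL36A had 9.09, 14.8 and 8.35 CPM in rescue, 5.65, 3.62 and 15.9 CPM in knockdown-labelled and 11.6, 12.9 and 7.8 CPM in control libraries, so that it was lowest where most members were highest. Its log2 fold change in rescue against knockdown-labelled was 0.36 (95% confidence interval -0.66 to 1.38). RPL26 had 12.6, 19.1 and 17.98 CPM in rescue, 11.8, 16.3 and 14.5 CPM in knockdown-labelled and 12.1, 12.3 and 12.001 CPM in control libraries. RPL17 had 3.03, 4.81 and 5.76 CPM in rescue, 4.31, 3.09 and 4.68 CPM in knockdown-labelled and 3.14, 4.9 and 3.18 CPM in control libraries. RPL26 and RPL17, which sit around the exit tunnel, and RPL36A were the 3 genes with a positive log2 fold change in rescue against knockdown-labelled (0.21 for RPL26 and 0.17 for RPL17). RPS10, ubiquitinated like RPS20 on collided ribosomes, had 2.97, 6.12 and 6.56 CPM in rescue, 9.69, 6.09 and 7.18 CPM in knockdown-labelled and 4.77, 3.27 and 5.03 CPM in control libraries. None of the 5 under 20 CPM passed in any comparison with all 9 libraries, and in rescue against knockdown-labelled the interval of RPS10 ran from -1.29 to 0.18.

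In knockdown-labelled against control libraries, 0 of the 77 genes passed in edgeR in either direction, where 0.00595% of all tested genes were higher and 0.0% lower. At an unadjusted p under 0.05, 35 were higher and 0 lower, against 19.1% of all tested genes in either direction. DESeq2 called 8 higher and 0 lower, against 3.69% and 2.74% of all genes, and limma-voom called 0 in either direction. With no filter on low counts 45 were higher and 0 lower, against 2.09% and 0.89% of all genes. The log2 fold change was positive in 74 of the 77, against 51.4% of all tested genes, with a median of 0.61, against 0.02 over all tested genes. Every knockdown-labelled library was above every control library in RPS10, RPS4X, RPL5, RPL4 and RPS20, 5 of 77 genes, against 11.0% of all tested genes, and below in 0, against 10.2%. Without knockdown-labelled library 3, 71 genes were higher and 1, RPL36A, was lower, against 18.1% and 14.8% of all tested genes. With library 3 as the only knockdown-labelled library, 0 were higher and 32 lower, against 2.34% and 9.07%, and the median was -0.33.

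The highest log2 fold changes in knockdown-labelled against control were 1.01 for RPS20 (SE 0.264, adjusted p = 0.0993), 0.97 for RPS7, 0.96 for RPL9, 0.94 for RPS6 and 0.94 for RPL34. RPL9, a protein at the base of the stalk on the large subunit, had 2382, 2419.6 and 635 CPM in knockdown-labelled libraries against 902, 931 and 965 CPM in control libraries, and stood highest of the 77 in both library 1 and library 2. RPS4X and RPS3A were 0.70 and 0.91 (adjusted p = 0.103 and 0.118). Among the lowest were -0.36 for RPL36A, -0.12 for RPL41, -0.08 for RPL22 and 0.10 for RPL17. RPL41 and RPL22 lay above 20 CPM, and RPL36A and RPL17 below it.

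In rescue against control libraries, 0 of the 77 genes passed in edgeR, in DESeq2 or in limma-voom, where edgeR called 0.143% of all tested genes higher and 0.00595% lower and DESeq2 1.44% and 0.5%. With no filter on low counts 0 passed as well, against 0.936% higher and 0.208% lower. At an unadjusted p under 0.05, 1 was higher (RPL26) and 1 lower (RPL22), against 10.5% of all tested genes in either direction. The log2 fold change was negative in 73 of the 77, against 51.0% of all tested genes, with a median of -0.18, against -0.01 over all tested genes. All rescue libraries were below all control libraries in 27 of the 77 genes, against 13.6% of all tested genes, and above them in 1, RPL26, against 12.8%. The lowest log2 fold changes were -0.34 for RPL22 (SE 0.125, 95% confidence interval -0.62 to -0.07, adjusted p = 0.355), -0.33 for RPS18, -0.33 for RPS15, -0.32 for RPL10A and -0.31 for RPS2. The highest were 0.44 for RPL26 (SE 0.195, 95% confidence interval 0.01 to 0.87, adjusted p = 0.46), 0.26 for RPL17, 0.25 for RPS10, 0.05 for RPS29 and -0.00 for RPL36A. RPS20, RPS4X and RPS3A were at -0.23, -0.15 and -0.09. This comparison shares its rescue libraries with the first and its control libraries with the second, so the 3 are not independent. With only the rescue and control libraries in the fit, 4 genes were lower and 0 higher, against 1.95% and 3.92% of all genes tested there. Without knockdown-labelled library 3, 9 were lower and 0 higher, against 2.86% and 4.52%, and without libraries 1 and 2, 5 were lower and 0 higher, against 1.89% and 3.38%.

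Within the rescue group, library 3 lay closer to the controls than libraries 1 and 2. Its median over the 77 genes was -0.02, with 33 genes above the control mean, against 1 and 8 genes in rescue libraries 1 and 2. RPL28 was the lowest gene in rescue library 2, at -0.61 against the control mean (758, 538 and 862 CPM in the 3 rescue libraries, against 810.2, 856 and 808 CPM in control libraries).

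The control level per coding kilobase went with the level in knockdown-labelled library 3. This measure is divided by coding length, so abundance and length are not separated here. Control CPM without that division was not tested. Over the 72 genes at 20 CPM or more in the control mean, Spearman's rho between the level relative to the control mean and the control level per coding kilobase was -0.46 in knockdown-labelled library 3, against 0.04 and -0.04 in libraries 1 and 2. In the rescue libraries rho with this measure was -0.24, -0.23 and 0.05, and in the control libraries 0.14, 0.18 and -0.16. The correlation with coding length was not particular to library 3. It was 0.19, 0.06 and -0.32 in rescue, -0.17, -0.02 and 0.33 in knockdown-labelled and -0.47, -0.39 and 0.56 in control libraries. With GC content it was -0.05, -0.32 and 0.05 in rescue, -0.06, -0.15 and -0.31 in knockdown-labelled and 0.02, 0.22 and -0.17 in control libraries. These correlations are across genes of the same library, which share its depth and RNA, and genes are not independent replicates. The genes that passed in rescue against knockdown-labelled were longer, with a median coding length of 619.5 bases against 456 bases in the other 63, and lower in GC content, with a median of 43.4% against 49.1%. With fold changes corrected for length and GC content, 9 genes passed as lower, 4 of them among the 14, against 3.38% of all tested genes.

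**Figure D5:**
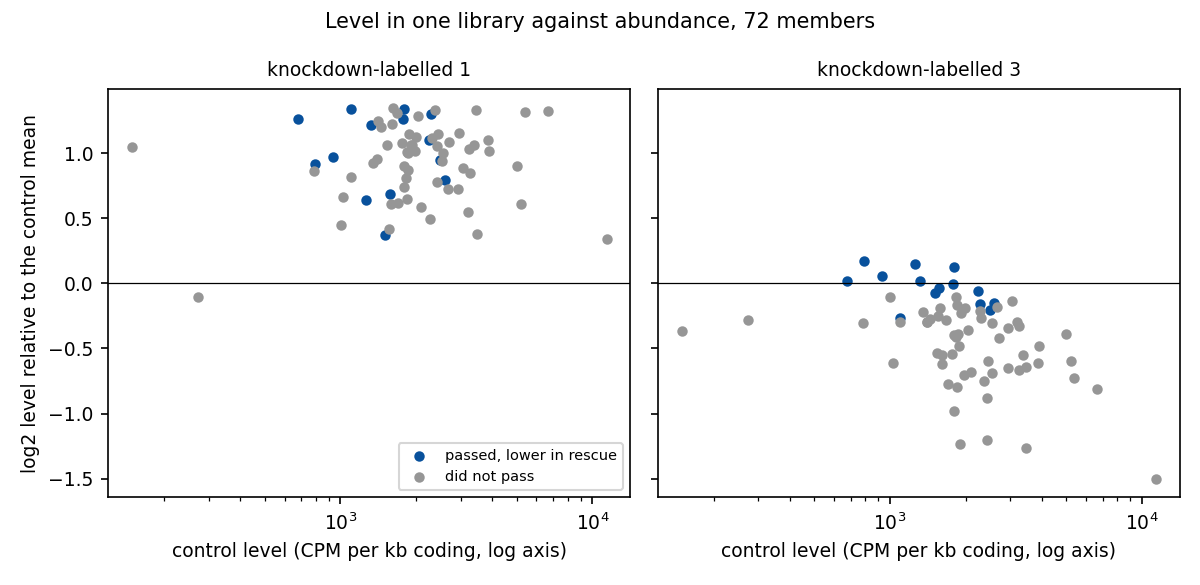
Log2 level relative to the control mean (y axis) in knockdown-labelled library 1 (left) and library 3 (right) against the control level in CPM per kilobase of coding sequence (x axis, log scale), for the 72 genes at 20 CPM or more. In library 3 the level falls with the control level per coding kilobase (Spearman's rho -0.46), and in library 1 rho is 0.04. Blue points are the 14 genes that passed a test that used library 3, where they lie near 0.

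Small groups within the ribosome followed the whole. The P stalk, which recruits the elongation factors, consists of RPLP0, RPLP1 and RPLP2. RPLP0 had 2505, 2644 and 2819 CPM in rescue, 4462, 4417 and 2493 CPM in knockdown-labelled and 3056, 3027 and 3085 CPM in control libraries. RPLP1 had 1456, 1419 and 1766 CPM in rescue, 3242, 3018 and 1327 CPM in knockdown-labelled and 1715, 1744 and 1739 CPM in control libraries. RPLP2 had 1016, 943 and 1395 CPM in rescue, 2471, 2252 and 807 CPM in knockdown-labelled and 1219, 1151 and 1169 CPM in control libraries. In all 3, knockdown-labelled library 3 was the lowest of the 9 libraries, and 0 of 3 passed in rescue against knockdown-labelled (log2 fold changes -0.51, -0.71 and -0.72, adjusted p = 0.154, 0.128 and 0.189 by edgeR). Without that library 3 of 3 were lower, at -0.74, -1.02 and -1.08.

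RPL5 and RPL11 form the 5S ribonucleoprotein. RPL11 had 669.8, 745 and 880.2 CPM in rescue, 1301, 1213 and 747 CPM in knockdown-labelled and 881, 870.1 and 804 CPM in control libraries, and did not pass (log2 fold change in rescue against knockdown-labelled -0.51, adjusted p = 0.135), while RPL5 did. Whether these 2 genes differ in their change was not tested. Of the 4 genes on the X chromosome, RPS4X passed. RPL10, a protein added late in assembly, had 1584, 1653 and 1834 CPM in rescue, 3123, 3061 and 1203 CPM in knockdown-labelled and 1812, 1882 and 1982 CPM in control libraries (log2 fold change -0.54, adjusted p = 0.258). RPL39, at the exit tunnel, had 404, 462 and 573 CPM in rescue, 1359, 1264 and 224 CPM in knockdown-labelled and 567, 529 and 525 CPM in control libraries (log2 fold change -0.99, adjusted p = 0.205). RPL36A is the fourth.

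By list, 6 of 46 large-subunit genes and 8 of 31 small-subunit genes were lower in rescue than in knockdown-labelled libraries, with medians of -0.72 and -0.81, where 5.39% of all tested genes were lower. Of 8 genes around the exit tunnel 1 passed (median -0.54), and of 14 genes of the small subunit's head 2 passed (median -0.75). Of 9 genes mutated in Diamond-Blackfan anaemia, a failure of red cell production, 4 passed (RPS7, RPS24, RPS26 and RPL5; median -0.80). Without knockdown-labelled library 3, where 20.4% of all tested genes were lower, 43 of 46 large-subunit genes, 29 of 31 small-subunit genes, 6 of 8 around the exit tunnel, 12 of 14 of the head and 7 of 9 mutated in the anaemia were lower. The 28 genes with a small nucleolar RNA gene in an intron or exon had a median of -0.79, and the 49 without had -0.77. The members of these lists also entered the whole, and the lists were not tested against each other.

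FAU and 3 paralogs outside the rule passed as lower in rescue than in knockdown-labelled libraries. FAU had 193, 200.02 and 258 CPM in rescue, 566, 473 and 249 CPM in knockdown-labelled and 245, 224 and 206 CPM in control libraries, and was lower in rescue than in knockdown-labelled (log2 fold change -0.98, SE 0.253, adjusted p = 0.0371; -1.26 without knockdown-labelled library 3). Of 8 paralogs 6 were tested, and 3 were lower in rescue than in knockdown-labelled: RPS27L, a p53 target (log2 fold change -0.94, adjusted p = 0.0385), RPL22L1 (-1.11, 0.0389) and RPL26L1 (-1.01, 0.0409). Over all 6 tested paralogs the log2 fold change ran from -1.11 to -0.06, with a median of -0.83. RPL22L1 had 15.4, 20.1 and 19.97 CPM in rescue, 51.95, 47.3 and 20.02 CPM in knockdown-labelled and 25.04, 22.04 and 21.6 CPM in control libraries, where its paralog RPL22 was nearly level. Their difference was not tested. The 1282 ribosomal protein pseudogene rows together had 0.0861%, 0.0938% and 0.0905% of gene counts in rescue, 0.0994%, 0.0903% and 0.0907% in knockdown-labelled and 0.101%, 0.102% and 0.0870% in control libraries, while the genes themselves had the shares given above. In summed CPM these rows had 793, 867 and 881 in rescue, 1256, 1131 and 818 in knockdown-labelled and 961, 968 and 839.5 in control libraries.

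Lists of other TOP genes and of initiation factors had medians closer to 0. The list of other TOP genes held translation factors and further genes such as TPT1 and HNRNPA1, and 17 of it were tested. Of these, 6 were lower and 0 higher in rescue than in knockdown-labelled libraries, with a median log2 fold change of -0.44. Among all tested genes 5.39% were lower and 4.44% higher. TPT1 had 922, 1049 and 1145 CPM in rescue, 2760.1, 2879.9 and 1248 CPM in knockdown-labelled and 1304, 1332 and 1369 CPM in control libraries (log2 fold change -1.14, adjusted p = 0.027). EIF3E, a subunit of initiation factor eIF3, had 167, 182 and 163 CPM in rescue, 355, 392 and 266 CPM in knockdown-labelled and 201, 208 and 249.9 CPM in control libraries (log2 fold change -0.98, adjusted p = 0.00909). Another eIF3 subunit, EIF3F, was at -0.53 (adjusted p = 0.0275). Of 23 other initiation factors, 4 were lower and 3 higher (median -0.18), among them EIF3M, lower at -0.62 (adjusted p = 0.0148), and EIF4H and EIF3C, higher at 0.55 and 1.16 (adjusted p = 0.0263 and 0.027). EIF3C has a near-identical copy, EIF3CL, so its counts are uncertain.

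Of 27 genes of RNA polymerase I, MYC and ribosome assembly, 2 were lower and 1 higher (median -0.08), shares near those of all tested genes. NPM1, a nucleolar chaperone, was at -0.68 (adjusted p = 0.0208), LTV1, an assembly factor of the small subunit, at -0.75 (0.0218) and RRP12, which acts in export and maturation of both subunits, at 0.48 (0.0197). Of 11 regulators of TOP mRNAs and growth, RHEB, the activator of mTORC1, was lower at -0.67 (adjusted p = 0.033), and 0 were higher (median -0.06). Of 13 tested host genes of small nucleolar RNAs, EPB41L4A-AS1 and ZFAS1 were lower at -0.68 and -0.55 (adjusted p = 0.033 and 0.0488) and 0 were higher (median -0.24). The ribosome of mitochondria, built from other proteins, was measured by 76 tested genes, of which 25 were lower and 0 higher (median -0.56), with MRPS18B at -0.72, MRPS10 at -0.76 and MRPL9 at -0.65 (adjusted p = 0.00866, 0.00909 and 0.00909). Of the 13 mitochondrially encoded mRNAs 11 were lower (median -1.35). Without knockdown-labelled library 3, 20.4% of all tested genes were lower and 18.6% higher. In that fit 13 of the other TOP genes were lower and 1 higher. The counts, lower then higher, were 8 and 6 for the other initiation factors and 7 and 5 for the polymerase I and assembly genes. They were 3 and 3 for the growth regulators and 8 and 0 for the small nucleolar RNA hosts. For the mitochondrial ribosomal proteins they were 64 and 0, and for the mitochondrially encoded mRNAs 13 and 0. In knockdown-labelled against control and in rescue against control, none of these lists held a gene that passed. Their medians in knockdown-labelled against control were 0.26 for the other TOP genes, 0.13 for other initiation factors and 0.02 for polymerase I and assembly genes. Mitochondrial ribosomal proteins had 0.41 and mitochondrially encoded mRNAs 0.997, beside 0.61 for the cytosolic ribosomal protein genes.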

How the data were processed

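RNA sequencing gave 9 libraries, 3 per group. The submitters' processing notes list hg38 and the tools HTSeq, STAR, cutadapt and FastQC. No source used here gives their versions, the strand setting or the annotation. For each gene the deposited file holds raw read counts, to which the authors applied no normalization. Rows that name no gene held 43.7% to 48.7% (no feature), 2.36% to 3.14% (ambiguous) and 7.67% to 11.6% (not unique) of counts and stayed out of library sizes and tests.

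The counts went into edgeR 4.0.16 (R 4.3.3) with filterByExpr at a minimum count of 10, TMM factors and a quasi-likelihood F test over all 9 libraries with 6 residual degrees of freedom, followed by Benjamini-Hochberg adjustment over all 16796 tested genes at 0.05. Depth was 8132206 to 14185252 counts per library. CPM are counts divided by the TMM-scaled library size, in the usual units. Each SE is the size of the log2 fold change divided by the root of its F statistic, and intervals are 95% confidence intervals. Levels relative to the control mean used CPM, and the pairwise share tests were exact permutation tests, two-sided. DESeq2 1.42.0 and limma 3.58.1 were alternatives. The fit was tested on simulated data. Coding length, GC content, position and shared 100-base windows came from GENCODE release 29 (GRCh38), in which all 77 symbols matched.

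The members and lists were chosen with earlier results of these data known. Members named in full were RPS20, RPS4X and RPS3A, those that passed, the 5 highest and 5 lowest fold changes where fewer than 10 passed, the 5 highest and lowest per coding kilobase, the 5 farthest from the median member, and the stalk, 5S and X-chromosome members; of other lists, up to 3 with the smallest p. A few genes that the rule names are not reported here. RPS18, RPL28 and RPL21 were named after their values were seen.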

Additional observations from a re-analysis of the deposited data

How the results depend on the processing

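In the order higher, lower, the number of ribosomal protein genes called in knockdown-labelled against control was 45 and 0 with no filter on low counts and 8 and 0 with the DESeq2 Wald test, against 0 and 0. Leaving out each library in turn gave 0 to 71 higher and 0 to 1 lower, and without knockdown-labelled libraries 1 and 2 0 were higher, 32 were lower and the median was -0.33 (log2), against 0.61. In rescue against knockdown-labelled, the 14 lower genes became 60 with no filter and 40 with DESeq2. They became 9 with limma-voom and 9 with the correction for length and GC content, against 5.19% and 3.38% of all tested genes. With only the 2 groups compared, or at an adjusted p under 0.01, 0 passed. With the replicate block, 0 passed, where 1.3% of all tested genes were lower. Same-numbered libraries did not deviate together (correlations -0.355 to 0.078), so the numbers are not taken to pair them. Leaving out each library in turn gave 0 to 72 lower and 0 to 1 higher; without knockdown-labelled libraries 1 and 2 there were 0 lower and 21 higher, and the median was 0.21, against -0.78. In rescue against control, 4 were lower with only the 2 groups compared, 0 to 9 with each library left out, and 5 without knockdown-labelled libraries 1 and 2. The causes were not tested. Other scalings gave 12 or 13 lower genes in rescue against knockdown-labelled, all among the 14, against 1.37% to 5.08% of all tested genes.

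Of 858 values of named genes under the alternatives, 639 kept their side of the threshold, 181 lost it and 35 gained it. A called value reversed in 3: RPL41 in knockdown-labelled against control was 0.27 without knockdown-labelled library 3 and -0.42 without library 1, the ends of its range with each library left out, and without libraries 1 and 2 RPL9 in that comparison was -0.58 and RPS7 in rescue against knockdown-labelled was 0.071. In 27 more the sign changed with neither value called. With 3 libraries per group and such a spread within the knockdown-labelled group, the intervals are wide. They cover the spread between libraries only, pooled over the 3 groups. Intervals that involve the knockdown-labelled group may therefore still be too narrow.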
